A study of Homo sapiens with 192 samples.

Results

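The keratin genes described here are 10 members of the intermediate filament family: KRT7, KRT8, KRT80 and KRT81 of type II, and KRT15, KRT17, KRT18, KRT19, KRT20 and KRT23 of type I. They were picked by name from the 58243 genes of the count files, with earlier results of these data known but by no threshold on their values, and all 10 were among the 19387 genes with enough counts to be tested. RNA was sequenced from 4 established lines of human colorectal cancer cells (CRC), HT29, LS513, HCT116 and LS174T, each under 2D growth and under 3D growth, with 3 libraries in each of the 8 groups. None of the cells received a treatment. Libraries are named by the numbers of the labels, which are 1, 3 and 4 for HT29 grown in 3D and 1 to 3 otherwise, and values are given in that order. HCT116 was kept in McCoy medium and the other lines in DMEM, so this line and its medium cannot be told apart. The labels do not say how the 3D cultures were made. Each line stands for 1 tumor, and nothing states that the 3 libraries of a group came from separate cultures, so p-values measure the spread between these libraries, which may be technical.

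Keratin filaments are built from pairs of 1 type I and 1 type II chain, so that a cell needs both types to make them. In simple epithelia such as the lining of the colon, KRT8 is the main type II chain and KRT18 its usual type I partner, with KRT19 as a further type I chain. KRT20 is a type I keratin of differentiated gut epithelium, and its protein is used by pathologists, together with that of KRT7, to trace the origin of carcinomas. KRT15 and KRT17 are best known from stratified epithelia and hair follicles, KRT81 is a hair keratin, and KRT80 lies near desmosomes, the junctions to which keratin filaments attach.

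Levels are in CPM, the usual measure of counts divided by the library total, here corrected with TMM factors, and are given as mean ± SD of 3 libraries. Library totals were between 18723942 and 34277421 counts. A count of 3 was taken as the floor of detection, which corresponds to between 0.0875 and 0.160 CPM before TMM scaling and covers counting error only. Growth effects are log2 fold changes of 3D over 2D from edgeR's quasi-likelihood test on all 24 libraries, with their standard error (SE) and a Benjamini-Hochberg adjusted p over all tested genes, and a gene is called at an adjusted p under 0.05. With 3 libraries against 3, an exact permutation test of a single value cannot go below p = 0.1. Replicate 2 of LS174T grown in 3D stood apart from the other libraries of its group. Across 14617 genes, Pearson's r of log2(CPM + 1) was 0.976 and 0.985 for the pairs with this library, against 0.988 to 0.999 for the other 22 pairs of one group. Growth effects of the keratins in LS174T, and the other results that change with this library, are therefore given with and without it.

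As a check of the cells, EPCAM and CDH1, which encode the epithelial adhesion molecules EpCAM and E-cadherin, were detected in all 24 libraries, at 257 to 1816 and 18.01 to 521 CPM. All 10 of a list of colon epithelial markers reached 1 CPM in HT29, LS513 and LS174T. In HCT116 only 5 did, with CDH17, CDX1, VIL1, GPA33 and LGALS4 under 1 CPM. Of 10 mesenchymal markers, 6 reached 1 CPM in HCT116 and 1 or 2 in the other lines. Their summed level was highest in HT29, between 1603 and 1935 CPM in 2D and between 2114 and 2350 CPM in 3D. S100A4 had means of 1771 and 2214 CPM there. In HCT116 the sum was between 48.8 and 53.7 CPM in 2D and between 89.1 and 129 CPM in 3D. TP63, the defining factor of stratified epithelium, had no more than 3 counts in any library. Of 7 markers of stratified squamous epithelium, TP63 among them, 2 reached 1 CPM in LS174T and 1 in each other line. In HT29 this was KRT13, with means of 231 CPM in 2D and 168 CPM in 3D. In bulk RNA, fewer cells of one kind and less RNA per cell cannot be told apart.

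The genes lie in the 2 keratin clusters of the genome (positions from GENCODE 29 on GRCh38). On chromosome 12 are KRT80 (ENSG00000167767, chr12:52168996-52192000), KRT7 (ENSG00000135480, chr12:52232520-52252186), KRT81 (ENSG00000205426, chr12:52285913-52291534), KRT8 (ENSG00000170421, chr12:52897187-52949954) and KRT18 (ENSG00000111057, chr12:52948871-52952901), which is the type I gene that lies in the type II cluster. On chromosome 17 are KRT20 (ENSG00000171431, chr17:40875941-40885227), KRT23 (ENSG00000108244, chr17:40922696-40937634), KRT15 (ENSG00000171346, chr17:41513743-41522529), KRT19 (ENSG00000171345, chr17:41523617-41528308) and KRT17 (ENSG00000128422, chr17:41619441-41624842). KRT8 and KRT18 share 525 exonic bases on opposite strands, which is 7.63% of the exonic bases of KRT8 and 16.3% of those of KRT18. The libraries were strand specific, but the strand setting of the counting is not given in the sources used here.

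KRT20 had the widest span of fitted mean levels between the lines, so the sequence before its start is shown. It is the reference sequence of RefSeq (GRCh38.p14, chr17:40885243-40885492, minus strand), read towards the gene, and ends at the base before the start in RefSeq, which lies 15 bases upstream of the end of the gene given above from GENCODE. Distances are counted from the start in RefSeq. Only KRT20 and KRT8 had an entry in the table of promoters, and that of KRT8 lies at an upstream start. Capitals mark CCAAT, from 79 to 75 bases before the start, and CATAAA, from 29 to 24 bases before it.
KRT20: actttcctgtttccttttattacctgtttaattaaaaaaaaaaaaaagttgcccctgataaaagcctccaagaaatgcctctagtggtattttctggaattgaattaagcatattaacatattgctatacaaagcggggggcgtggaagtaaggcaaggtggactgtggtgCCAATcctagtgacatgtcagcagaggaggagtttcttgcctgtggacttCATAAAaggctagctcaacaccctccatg
CATAAA is TTTATG on the other strand, which is part of the sequence bound by CDX2, a homeobox factor of the intestine. On either strand, the motif is found in 9.64% of 35116 promoter windows of the same length, and CCAAT in 32.0%. Matches to TATAAA (10.7% of windows) and GGGCGG (42.6%) were absent from these 250 bases. These matches describe letters and do not show binding.

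A pair of sequences shows how alike KRT81 and KRT86 are. Reads of 75 bases were counted where they aligned once, and of the 75-base windows of the KRT81 transcript 36.6% are also found, base for base, in another gene, mostly in its neighbour KRT86. The stretch below lies in the coding sequence of both genes, from coding base 635 to 709, and differs at 2 positions, which are in capitals. It is therefore not one of the windows shared base for base.
KRT81: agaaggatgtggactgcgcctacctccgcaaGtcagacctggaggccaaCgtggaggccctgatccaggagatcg
KRT86: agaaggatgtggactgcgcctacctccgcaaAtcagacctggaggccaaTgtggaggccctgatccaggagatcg
For KRT8 the share of such windows was 19.2%, over 12 genes, mostly its processed pseudogenes. It was 6.46% for KRT18 and 4.57% for KRT17, and 0 for KRT7, KRT15, KRT19, KRT20, KRT23 and KRT80. Counts on the 50 annotated pseudogenes of KRT8 were between 0.360% and 1.20% of the sum of KRT8 and these pseudogenes in a library. KRT8, KRT17, KRT18 and KRT81 are therefore uncertain where their reads also match a copy.

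Keratin transcripts were abundant in all lines, and KRT8, KRT18 and KRT19 carried most of them. These 3 genes held between 84.8% and 99.3% of the counts of the 10 keratins in a library, with a median of 96.4%. The 10 keratins together took 1.48% ± 0.138 of all counts in HT29 grown in 2D and 1.45% ± 0.0145 in 3D. They took 0.706% ± 0.0122 and 0.924% ± 0.0666 in LS513, 0.394% ± 0.0473 and 0.543% ± 0.0303 in HCT116, and 0.315% ± 0.0823 and 0.312% ± 0.0647 in LS174T, each first in 2D and then in 3D. The 3D mean of LS174T was 0.277% without replicate 2. By count, KRT8 ranked between 1 and 64 among all genes and KRT81 between 11635 and 24020.

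**Figure D1:**
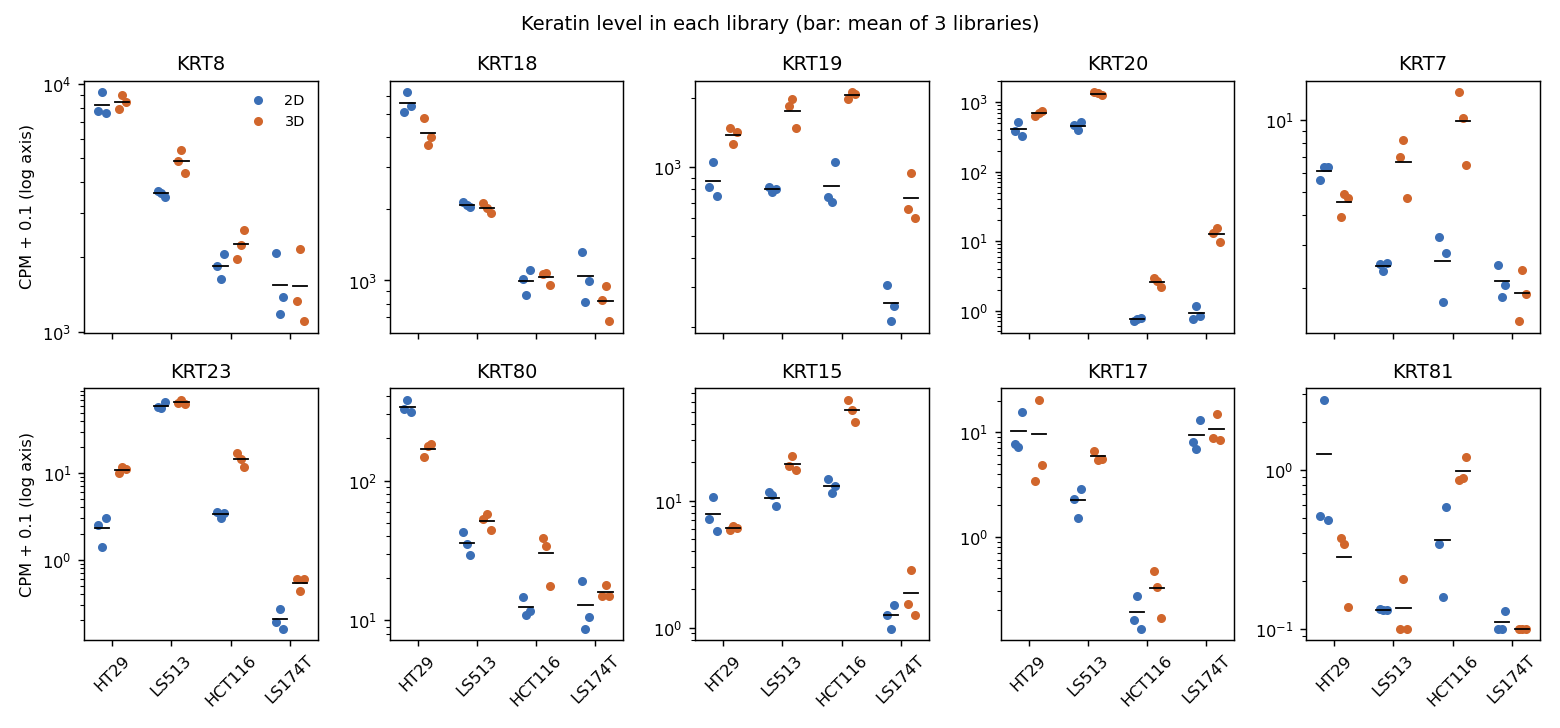
Level of each keratin in each library, in CPM plus 0.1 on a log axis that is scaled for each gene. Points are libraries, blue for 2D and orange for 3D, and bars are means of 3. The points of KRT20 span from 0.604 CPM in HCT116 to 1382 CPM in LS513, while those of KRT19 stay between 212 and 2115 CPM.

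KRT8 and KRT18, the main pair of simple epithelia, differed more between lines than between growth conditions. KRT8 in HT29 was at 7777, 9227 and 7607 CPM in 2D and at 7938, 9043 and 8415 CPM in 3D. It was at 3704, 3624 and 3503 CPM in LS513 grown in 2D, and at 4897, 5431 and 4361 CPM in 3D. The 2 groups of HT29 overlapped, and every 3D library of LS513 was above every 2D library. In HCT116 the values were 1841, 1637 and 2061 CPM in 2D and 1964, 2246 and 2583 CPM in 3D, and in LS174T 2068, 1176 and 1387 CPM against 1331, 2158 and 1103 CPM. KRT8 was not called in any line. Its log2 fold change was 0.05 (SE 0.19, adjusted p = 0.907, edgeR) in HT29 and 0.44 (SE 0.19, adjusted p = 0.106) in LS513. HCT116 had 0.29 (SE 0.19, adjusted p = 0.271) and LS174T -0.01 (SE 0.19, adjusted p = 0.998), where the second 3D library was the highest and the value without it was -0.33 (adjusted p = 0.226). When only the 6 libraries of LS513 were fitted, its adjusted p in that line was 0.00897.

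KRT18 was lower in 3D in HT29, with a call that did not hold when single libraries were left out. Its level was 5135, 6182 and 5425 CPM in 2D and 4809.6, 3729 and 4035 CPM in 3D, without overlap. The log2 fold change was -0.41 (SE 0.14, adjusted p = 0.0256, edgeR), a level 0.751 times that in 2D. The log2 fold change stayed between -0.33 and -0.40 but no longer passed when replicate 2 (adjusted p = 0.111) or replicate 3 (0.0611) of the 2D libraries, or replicate 3 (0.112) or replicate 4 (0.0737) of the 3D libraries, was left out. In LS513 the means were 2087 ± 47.7 and 2022 ± 95.9 CPM and in HCT116 995 ± 118 and 1030.4 ± 66.6 CPM, with log2 fold changes of -0.05 (SE 0.14) and 0.05 (SE 0.14). In LS174T the level was 1041 ± 258 CPM in 2D and 819 ± 139 CPM in 3D, a log2 fold change of -0.35 that was not called (SE 0.14, adjusted p = 0.0878), or -0.46 (adjusted p = 0.0526) without the second 3D library.

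Within a library, the ratio of KRT8 to KRT18 counts needs no scaling between libraries. In HT29 it was between 1.40 and 1.51 in 2D and between 1.65 and 2.43 in 3D, and in LS513 between 1.72 and 1.74 in 2D and between 2.27 and 2.68 in 3D. In LS174T it was between 1.40 and 1.57 in 2D and between 1.60 and 2.27 in 3D, or between 1.60 and 1.64 without the second 3D library. The 3D libraries thus had the higher ratio in these lines without overlap, while in HCT116 the ranges, 1.82 to 1.88 and 1.85 to 2.71, overlapped. The ratio was not tested, and both genes share bases and pseudogene copies as given above.

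KRT19, the shortest keratin chain, which lacks most of the tail, was higher in 3D in all 4 lines. In HT29 it was at 816, 1051 and 750.0 CPM in 2D and at 1478, 1254 and 1415 CPM in 3D. In LS513 the libraries were at 818, 779 and 803 CPM in 2D and at 1839, 1977 and 1476 CPM in 3D. HCT116 had 739, 700.2 and 1050.45 CPM in 2D and 1989, 2115 and 2093 CPM in 3D. Every 3D library was above every 2D library of its line, and the 2D level of HCT116 was close to those of HT29 and LS513. In LS174T the level was lower, with 306, 212 and 246 CPM in 2D and 654, 942 and 599 CPM in 3D, again without overlap.

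In HT29 the log2 fold change of KRT19 was 0.66 (SE 0.17, adjusted p = 0.00346, edgeR), or 1.58 times the level in 2D. LS513 had 1.14 (SE 0.17, adjusted p = 3.72e-05), or 2.20 times, and HCT116 had 1.32 (SE 0.17, adjusted p = 6.17e-06), or 2.49 times. The value for LS174T was 1.52 (SE 0.17, adjusted p = 1.94e-06), or 2.87 times. Without the second 3D library of LS174T the value in that line was 1.31 (adjusted p = 6.93e-06). The calls held in all 4 lines with each library left out in turn. Whether the size of the increase differed between lines depended on the setting, with an interaction adjusted p of 0.0614 (edgeR), 0.0433 with DESeq2 and between 7.48e-05 and 0.343 over the 7 settings tried.

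Since KRT18 did not rise, KRT19 gained on it in each line. There were 0.156 ± 0.0161 KRT19 counts for each KRT18 count in HT29 grown in 2D and 0.331 ± 0.0222 in 3D. The ratio was 0.383 ± 0.0100 and 0.871 ± 0.104 in LS513, 0.829 ± 0.112 and 2.01 ± 0.165 in HCT116, and 0.247 ± 0.0149 and 0.888 ± 0.101 in LS174T, where the 3D mean was 0.838 without the second library. In HCT116 grown in 3D, KRT19 counts were thus above those of KRT18 in every library, with ratios between 1.87 and 2.19, while in 2D all ratios were under 1. This ratio is described without a test.

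**Figure D2:**
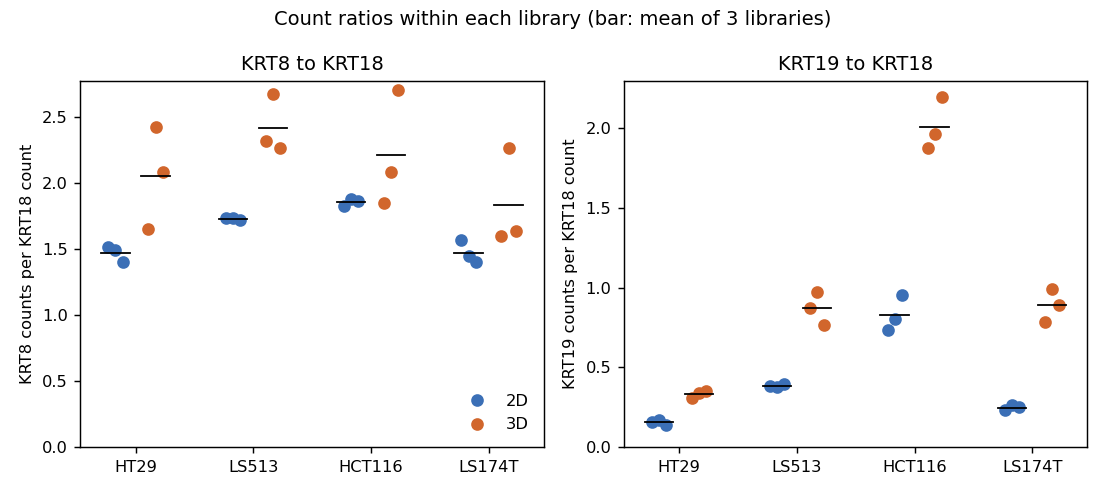
Counts of KRT8 (left) and KRT19 (right) for each count of KRT18, in each library, with axes that start at 0. Points are libraries, blue for 2D and orange for 3D, and bars are means of 3. The ratio of KRT19 to KRT18 was higher in every 3D library than in every 2D library of its line, with HCT116 between 1.87 and 2.19 in 3D.

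KRT20, the type I keratin of differentiated gut epithelium, rose in 3D in all 4 lines, from very different levels. In HT29 it was at 379, 512 and 327 CPM in 2D and at 640.4, 693 and 737 CPM in 3D. In LS513 it was at 472, 397 and 512 CPM in 2D and at 1382, 1366 and 1253 CPM in 3D. These lines had high levels in either growth condition, and their 2D and 3D libraries did not overlap. In HCT116 the levels were 0.604, 0.661 and 0.674 CPM in 2D and 2.89, 2.55 and 2.07 CPM in 3D, from 20 to 23 and from 62 to 87 counts. In LS174T they were 0.658, 1.05 and 0.741 CPM in 2D and 12.8, 15.2 and 9.64 CPM in 3D, from 22 to 37 and from 314 to 418 counts. All of these counts were above the floor.

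The log2 fold change of KRT20 was 0.76 in HT29 (SE 0.15, adjusted p = 0.000275, edgeR), or 1.70 times the level in 2D. It was 1.54 in LS513 (SE 0.15, adjusted p = 1.12e-07) and 1.95 in HCT116 (SE 0.26, adjusted p = 7.36e-06), or 2.90 and 3.86 times. In LS174T it was 3.93 (SE 0.21, adjusted p = 2.47e-11), or 15.2 times, and 3.78 (adjusted p = 1.18e-10) without the second 3D library. The increase differed between the lines (interaction adjusted p = 1.69e-07, edgeR), and each call held with every library left out in turn. Even after its increase, the level in LS174T stayed well under that of HT29 and LS513 grown in 2D.

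Colon epithelial markers moved beside KRT20. Of the 10 markers, 6 were higher in 3D in HT29 (21.1% of all tested genes were) and 1 was lower, ESRP1, which encodes an epithelial splicing factor (237 ± 8.31 and 166 ± 13.7 CPM). In LS513 6 were higher (13.7% of all tested genes) and in LS174T 5 (13.1%, or 7.3% without the second 3D library, when 5 markers were still higher). HCT116 had 3 higher, nearer to the 16.8% of all tested genes, and no marker was called lower in these lines. Their summed level was between 1711 and 1799 CPM in 2D and between 2574 and 2853 CPM in 3D in HT29. It was between 5802 and 6052 CPM and between 7820 and 8689 CPM in LS513, between 647 and 669 CPM and between 817 and 857 CPM in HCT116, and between 2045 and 2216 CPM and between 3502 and 4239 CPM in LS174T, with at most 3569 CPM without the second 3D library. LGALS4, a galectin of the gut lining, rose in HT29 (353 ± 10.6 and 1182 ± 58.1 CPM), LS513 (694 ± 77.6 and 1347 ± 221 CPM) and LS174T (402 ± 54.6 and 1290.3 ± 317 CPM). It also rose from a very low level in HCT116 (0.120 ± 0.0458 and 0.363 ± 0.224 CPM). GPA33, a surface antigen of colon epithelium, rose in LS174T (232 ± 10.97 and 608 ± 39.9 CPM) and HT29 (0.359 ± 0.145 and 3.09 ± 0.227 CPM). CLDN7, which encodes a tight junction protein, rose in LS513 (417 ± 10.5 and 699 ± 86.8 CPM) and HCT116 (134 ± 13.6 and 276 ± 7.33 CPM). CLDN7 was likewise called higher in HT29 (173 ± 7.27 and 291 ± 11.96 CPM) and LS174T (269 ± 7.40 and 411 ± 64.04 CPM). CDX1, an intestinal homeobox factor, rose from 0.462 ± 0.173 to 3.24 ± 0.283 CPM in HT29. CDX2 rose from 1.43 ± 0.404 to 6.72 ± 1.13 CPM in HT29, the line with the lowest CDX2 level and high KRT20. It also rose in LS513 (154 ± 12.7 and 233 ± 19.4 CPM) and LS174T (76.2 ± 2.12 and 131 ± 4.998 CPM). The part of these markers in the result for KRT20 was not tested.

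KRT7, a type II keratin of ductal and glandular epithelia, was low in all lines, with at most 12.9 CPM and between 44 and 388 counts in a library. It rose in LS513, from 2.41, 2.24 and 2.44 CPM in 2D to 6.90, 8.17 and 4.61 CPM in 3D. In HCT116 it rose from 3.14, 1.64 and 2.70 CPM to 12.9, 10.1 and 6.38 CPM. Neither line had overlapping groups. The log2 fold changes were 1.47 (SE 0.26, adjusted p = 0.000185, edgeR) and 1.98 (SE 0.25, adjusted p = 4.40e-06). In HT29 the levels were 5.998 ± 0.443 and 4.43 ± 0.522 CPM, a log2 fold change of -0.44 (SE 0.25, adjusted p = 0.165, or 0.0494 when only the 6 libraries of HT29 were fitted), and in LS174T 2.03 ± 0.335 and 1.80 ± 0.456 CPM (-0.18, SE 0.28, adjusted p = 0.683, or -0.36 without the second 3D library). The growth effect differed between the lines (interaction adjusted p = 3.29e-05). KRT7 shares 282 exonic bases with an antisense gene, KRT7-AS, which had at most 11 counts in a library.

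KRT80, the type II keratin found near desmosomes, went in opposite directions in HT29 and HCT116. In HT29 it fell from 325, 377 and 311 CPM in 2D to 148, 177 and 183 CPM in 3D. In HCT116 it rose from 14.7, 10.9 and 11.6 CPM to 38.9, 33.8 and 17.4 CPM. The groups did not overlap in either line. The log2 fold changes were -0.997 (SE 0.24, adjusted p = 0.00184, edgeR) in HT29 and 1.28 (SE 0.25, adjusted p = 0.000571) in HCT116, and the interaction was called (adjusted p = 0.000339). In LS513 the level was 35.6 ± 6.76 CPM in 2D and 51.5 ± 6.87 CPM in 3D (0.53, SE 0.24, adjusted p = 0.115), and in LS174T 12.7 ± 5.51 and 15.9 ± 1.74 CPM (0.32, SE 0.25, adjusted p = 0.376, or 0.24 without the second 3D library).

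KRT23, a type I keratin, rose in every line but LS513, where it was already highest. LS513 had 57.9, 55.9 and 65.4 CPM in 2D and 64.2, 70.1 and 63.4 CPM in 3D, which overlapped (log2 fold change 0.14, SE 0.16, adjusted p = 0.567, edgeR). In HT29 it rose from 2.40, 1.31 and 2.96 CPM to 9.86, 11.7 and 11.2 CPM. In HCT116 it rose from 3.41, 2.90 and 3.40 CPM to 16.8, 14.6 and 11.8 CPM. In 3D both lines were still below every library of LS513. Their log2 fold changes were 2.33 (SE 0.19, adjusted p = 7.83e-09) and 2.15 (SE 0.18, adjusted p = 8.63e-09). In LS174T KRT23 had 3, 6 and 2 counts in 2D and 16, 9 and 16 counts in 3D, close to the floor, and a log2 fold change of 2.00 (SE 0.45, adjusted p = 0.00341), or 2.16 (adjusted p = 0.00531) without the second 3D library. The growth effect differed between the lines (interaction adjusted p = 1.38e-06). KRT23 shares 186 exonic bases with an antisense gene that had at most 28 counts in a library.

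KRT15, a type I keratin of basal cells in stratified epithelia, rose most in HCT116. It went from 14.6, 11.5 and 12.8 CPM in 2D to 62.2, 52.0 and 41.5 CPM in 3D in that line, and from 11.5, 10.9 and 8.97 CPM to 18.7, 22.6 and 17.2 CPM in LS513. The log2 fold changes were 2.00 (SE 0.22, adjusted p = 4.09e-07, edgeR) and 0.90 (SE 0.22, adjusted p = 0.00378). In HT29 the level was 7.75 ± 2.47 CPM in 2D and 6.03 ± 0.219 CPM in 3D (-0.37, SE 0.23, adjusted p = 0.200), and the groups overlapped. In LS174T it was 1.15 ± 0.256 and 1.78 ± 0.837 CPM (0.61, SE 0.29, adjusted p = 0.134), and the log2 fold change was 0.20 without the second 3D library. The interaction was called (adjusted p = 7.09e-05).

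KRT17, a type I keratin induced in wounded and stressed epithelia, was not called in any line. Its level in HT29 was 7.61, 7.16 and 15.6 CPM in 2D and 3.29, 20.3 and 4.79 CPM in 3D, where replicate 3 was the highest library of both groups. Without replicate 3 of the 3D libraries, the log2 fold change in HT29 was -1.31 (adjusted p = 0.00962, edgeR) in place of -0.08 (SE 0.47, adjusted p = 0.946), so that 1 library decided the value. In LS513 the libraries were at 2.19, 1.42 and 2.79 CPM in 2D and at 6.52, 5.33 and 5.47 CPM in 3D. They did not overlap, with a log2 fold change of 1.44 just short of the threshold (SE 0.52, adjusted p = 0.0509), which passed with the size factors of DESeq2 in place of TMM (0.0499) and when only the 6 libraries of LS513 were fitted (0.00112). In LS174T the means were 9.25 ± 3.28 and 10.6 ± 3.64 CPM (0.20, SE 0.47), and the log2 fold change was -0.10 without the second 3D library. In HCT116 there were 2, 6 and 1 counts in 2D and 11, 7 and 2 in 3D, near the floor.

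KRT81, the hair keratin, was at 3 counts or fewer in 14 of the 24 libraries, and 225 counts were found in the 24 libraries together. Of these, 77 came from replicate 2 of HT29 grown in 2D. The other 2D libraries of HT29 had 12 and 7 counts and the 3D libraries 9, 7 and 1. Its log2 fold change of -2.64 in this line (SE 0.73, adjusted p = 0.00646, edgeR) was -1.07 (adjusted p = 0.257) without replicate 2 of the 2D libraries, and the interaction adjusted p went from 0.0216 to 0.115, so both calls rested on that library. In HCT116 there were 8, 2 and 15 counts in 2D and 23, 24 and 33 in 3D, without overlap (1.78, SE 0.69, adjusted p = 0.0592). In LS513 no library had more than 3 counts, and LS174T had 1 count in 1 of its 6 libraries, so no fold is given for these lines.

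**Figure D3:**
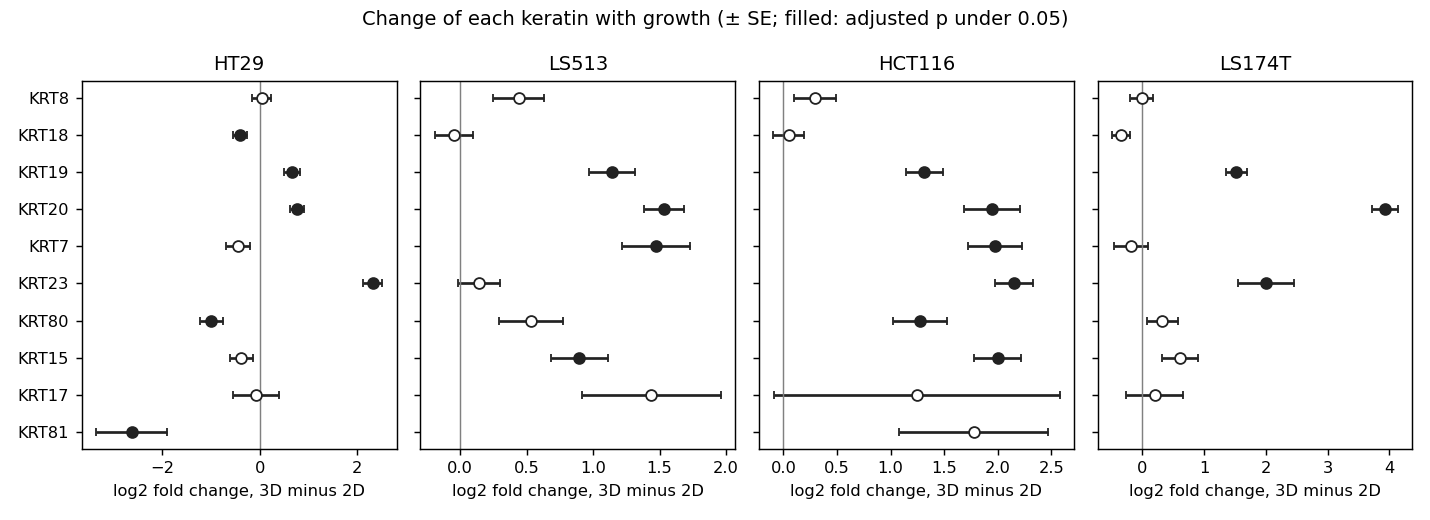
Log2 fold change of each keratin in 3D over 2D in each line, with its SE as bars, and filled points for an adjusted p under 0.05 (edgeR). KRT81 is left out in LS513 and LS174T, where it was at or under the floor. KRT19 and KRT20 are filled and above 0 in all 4 lines, while KRT80 is at -0.997 in HT29 and at 1.28 in HCT116.

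Counted over the members, HT29 had 3 keratins higher in 3D (KRT19, KRT20 and KRT23), where 21.1% of all tested genes were called higher. It had 3 lower (KRT18, KRT80 and KRT81), where 19.6% of all tested genes were called lower. In LS513 4 keratins were higher (KRT7, KRT15, KRT19 and KRT20; 13.7% of all tested genes) and 0 lower (9.9%). In HCT116 6 were higher (KRT7, KRT15, KRT19, KRT20, KRT23 and KRT80; 16.8%) and 0 lower (12.3%). In LS174T 3 were higher (KRT19, KRT20 and KRT23; 13.1%) and 0 lower (9.15%). The counts of higher keratins were above the share of all genes in LS513, HCT116 and LS174T, and were closer to it in HT29. At an unadjusted p under 0.05, KRT18 was also lower in LS174T, while LS513 and HCT116 still had none lower. DESeq2 also called 0 keratins lower in these 3 lines, but KRT18 was called lower in LS174T when no filter beyond 1 count per gene was used (adjusted p = 0.0183, edgeR) or without replicate 2 of the 2D libraries (0.0245). The median log2 fold change of the 10 keratins was -0.23 in HT29 and 0.71 in LS513, and reached 1.55 in HCT116 against 0.26 in LS174T. That of all tested genes was between 0.00 and 0.02. For 6 of the 10 keratins, KRT7, KRT15, KRT20, KRT23, KRT80 and KRT81, the growth effect differed between the lines by the interaction test, which called 17.1% of all tested genes.

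The levels over both growth conditions ordered the lines in several ways. KRT8, KRT18 and KRT80 were highest in HT29, followed by LS513, HCT116 and LS174T. All neighbours in this order differed for KRT8 and KRT80, while HCT116 and LS174T did not pass for KRT18 (log2 difference 0.13, adjusted p = 0.243, edgeR). For KRT19, the tests did not separate HCT116, LS513 and HT29, whose neighbours differed by 0.14 (adjusted p = 0.295, edgeR) and 0.11 (adjusted p = 0.421). HT29 against HCT116 gave -0.25 (adjusted p = 0.0598). In 3D alone, HCT116 was at 1989 to 2115 CPM and HT29 at 1254 to 1478 CPM, without overlap. LS174T lay 1.35 below HT29 (adjusted p = 6.03e-10). KRT20 was highest in LS513, 0.56 above HT29 (adjusted p = 3.59e-05), which lay 7.37 above LS174T (adjusted p = 2.25e-22), and LS174T lay 1.33 above HCT116 (adjusted p = 4.33e-07).

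KRT23 was highest in LS513, 3.20 above HCT116 (adjusted p = 4.26e-17, edgeR), then HT29 and, 4.45 lower, LS174T (adjusted p = 1.66e-15). KRT15 went from HCT116 over LS513 and HT29 to LS174T, and every step passed. KRT17 was highest in LS174T and HT29, which did not differ beyond their spread (0.03, adjusted p = 0.963), then LS513, and lowest in HCT116. Over both growth conditions KRT7 was highest in HT29, but HT29 was not separated from HCT116 (0.06, adjusted p = 0.780, edgeR). HCT116 was not separated from LS513 (0.33, adjusted p = 0.0999), and LS174T lay 1.05 below LS513 (adjusted p = 2.85e-05). In 3D alone, KRT7 was higher in HCT116 (6.38 to 12.9 CPM) than in HT29 (3.83 to 4.81 CPM). KRT81 was higher in HCT116 and HT29 than in LS513 and LS174T. Counted by pairs of lines, 8 of the 10 keratins differed between HT29 and LS513 (69.3% of all tested genes did), 7 between HT29 and HCT116 (75.7%), 9 between HT29 and LS174T (73.5%), 8 between LS513 and HCT116 (76.2%), 9 between LS513 and LS174T (68.9%) and 9 between HCT116 and LS174T (76%). These counts were near the share of all genes, and each of the pairs with LS174T still had 9 without the second 3D library of that line.

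To compare levels between genes, CPM were divided by gene length, which left a choice of length, since the union of all annotated exons of KRT8 is 6881 bases and its shortest principal transcript 1755. By the union of exons, KRT18 had the largest share of the summed keratin CPM per kb in HT29 grown in 2D, 48.2% ± 1.61, against 33.1% ± 0.461 for KRT8. By the shortest principal transcript it was the other way round, with 41.1% ± 1.23 and 48.9% ± 0.627. The order of KRT8 and KRT18 was thus not settled. What did not depend on the length was the place of KRT19 in HCT116 grown in 3D, where its share was the largest of all keratins, at 56.8% ± 0.231 by the union and 41.9% ± 0.935 by the principal transcript. In 2D it held 37.6% ± 3.06 and 25.1% ± 2.43 in that line.

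The share of KRT20 in LS513 went from 13.9% ± 1.59 in 2D to 25.3% ± 1.03 in 3D by the union of exons, and from 6.001% ± 0.768 to 12.2% ± 0.578 by the principal transcript. In HCT116 and LS174T its share stayed under 1% in both growth conditions. The sum of type II keratins per kb was 0.423 ± 0.0181 times that of type I in LS513 grown in 2D and 0.340 ± 0.0166 times in 3D, by the union. It was 0.410 ± 0.0257 and 0.278 ± 0.0351 in HCT116, 0.517 ± 0.0388 and 0.384 ± 0.0545 in LS174T, and 0.546 ± 0.0122 and 0.563 ± 0.0860 in HT29. By the principal transcript the means were 0.881 and 0.800 in LS513, 0.814 and 0.582 in HCT116, 0.948 and 0.769 in LS174T, and 0.993 and 1.13 in HT29. Under both lengths, the mean ratio was lower in 3D in LS513, HCT116 and LS174T and higher in HT29. The libraries of both growth conditions overlapped in HT29 and, by the principal transcript, in LS174T (0.897 to 1.02 in 2D and 0.690 to 0.903 in 3D). Without the second 3D library, the 3D means of LS174T were 0.353 by the union and 0.702 by the principal transcript. The ratio was not tested.

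**Figure D4:**
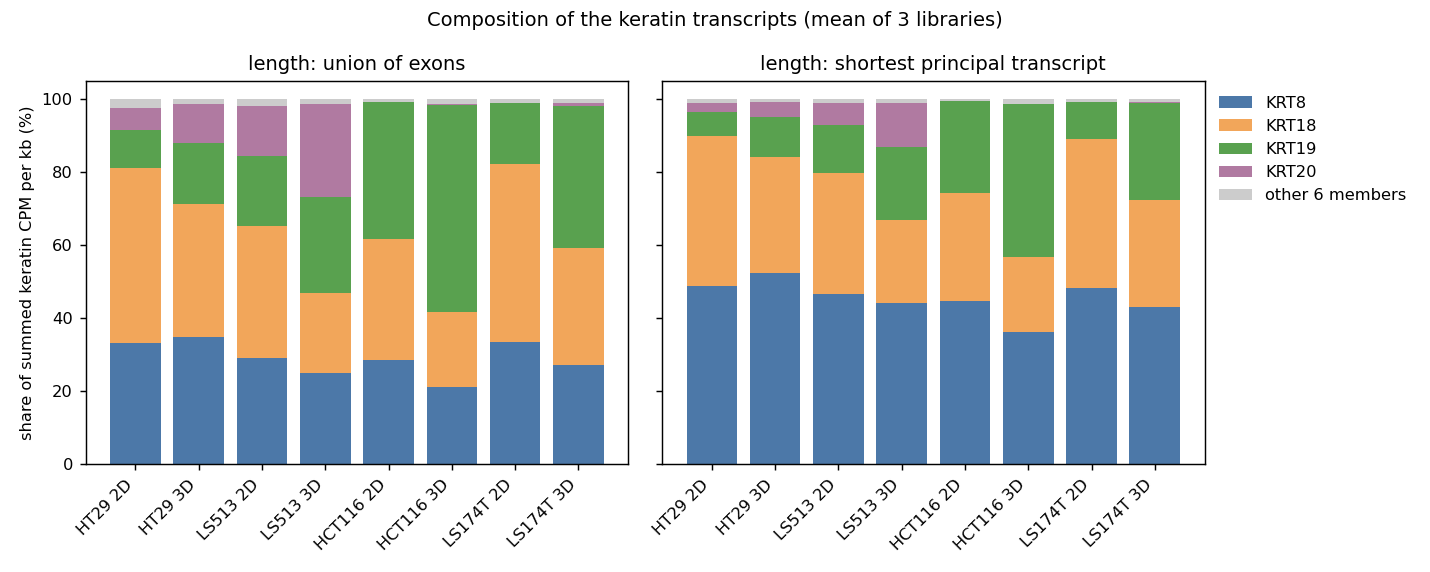
Share of each keratin in the summed CPM per kb of the 10 keratins, in percent, as the mean of 3 libraries in each group, with length as the union of exons (left) or the shortest principal transcript (right). KRT19 takes the largest part in HCT116 grown in 3D in both panels, at 56.8% and 41.9%, and KRT20 is visible mainly in HT29 and LS513.

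Most of the 45 other keratin genes of the list were hardly expressed. In the 24 libraries 4 had no count, 13 were tested and 8 reached 1 CPM in a group. In HT29 3 of the 13 were higher and 1 lower in 3D (21.1% and 19.6% of all tested genes). In LS513 1 was higher (13.7%). HCT116 had 8 higher (16.8%) and none lower (12.3%), and LS174T had 2 lower (9.15%). The median log2 fold change of the 13 was 2.24 in HCT116 and between 0.00 and 0.12 in the other lines. A gene could pass the filter through a single group where it was high. KRT34 had a mean of 0.674 CPM in HCT116 grown in 3D and at most 0.205 CPM in any other group. KRT32 had no count outside HCT116. Such genes can raise the count and median of HCT116, which are therefore not compared with those of the other lines. KRT13, a keratin of the oral and oesophageal lining, reached 299 CPM in a library of HT29, and in HCT116 it rose from 0.396 ± 0.0741 to 4.94 ± 1.78 CPM (log2 fold change 3.64, SE 0.38, adjusted p = 2.90e-07, edgeR). KRT16, the partner of KRT6 in activated epidermis, rose from 0.887 ± 0.261 to 4.19 ± 0.907 CPM in HCT116 (2.24, adjusted p = 0.00406). In LS513 it rose from 0.240 ± 0.128 to 1.03 ± 0.254 CPM (2.08, adjusted p = 0.0390). In HT29 it was also called (1.61, adjusted p = 0.0391), with an SD of 2.47 around a mean of 1.96 CPM in 3D.

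The hair keratin KRT32 rose from 4.44 ± 0.816 to 12.03 ± 2.59 CPM in HCT116. KRT75 fell from 2.71 ± 1.05 to 1.01 ± 0.262 CPM in LS174T (0.859 CPM without the second 3D library), and in HCT116 it was called higher (adjusted p = 0.0464, edgeR) at 0.0321 ± 0.0556 and 0.187 ± 0.0753 CPM. KRT86, which shares part of its sequence with KRT81, fell from 0.618 ± 0.183 to 0.272 ± 0.108 CPM in HT29 (adjusted p = 0.0343, edgeR). In HCT116 it rose from 0.0719 ± 0.0374 to 0.661 ± 0.292 CPM (adjusted p = 9.46e-05, edgeR). KRT4 was at 0.0114 ± 0.0198 and 0.145 ± 0.179 CPM in HT29. Of 7 markers of stratified squamous epithelium, which include KRT13 and KRT4, 5 were tested. In 3D 1 was higher in HT29 (21.1% of all tested genes), 1 in LS513 (13.7%) and 2 in HCT116 (16.8%), which were KRT13 and KRT5. In LS174T 1 was lower (9.15%), KRT5 (0.274 ± 0.0747 and 0.102 ± 0.0698 CPM, or 0.0614 CPM without the second 3D library). The summed level of the 7 markers in HCT116 was between 0.489 and 0.738 CPM in 2D and between 3.78 and 7.12 CPM in 3D. In HT29 it was between 172 and 300 CPM in 2D and between 161 and 179 CPM in 3D. KRT13 had means of 231 and 168 CPM there. The part of such cells in the keratin results was not tested.

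The list of desmosome genes and of the plakins that tie keratin filaments to them held 21 genes. Of 19 tested genes, 0 were higher and 8 lower in 3D in HT29, 6 higher and 2 lower in LS513, 9 higher and 2 lower in HCT116, and 2 higher and 5 lower in LS174T. The shares of all tested genes called higher and lower were 21.1% and 19.6% in HT29, 13.7% and 9.9% in LS513, 16.8% and 12.3% in HCT116, and 13.1% and 9.15% in LS174T. Without the second 3D library, 1 gene of the list was higher and 4 lower in LS174T, where 7.3% and 3.56% of all tested genes then were. The medians were -0.31, 0.15, 0.44 and -0.21 in this order, and differences between the lines in these counts were not tested. PPL, which encodes periplakin, fell from 241 ± 7.46 to 130.4 ± 13.5 CPM in HT29 (log2 fold change -0.89, SE 0.10, adjusted p = 4.15e-07, edgeR). It was called higher in LS513 (111 ± 7.40 and 163 ± 9.57 CPM) and HCT116 (36.0 ± 3.36 and 58.2 ± 5.20 CPM). In LS174T PPL was called lower (49.7 ± 3.87 and 38.4 ± 4.05 CPM), but not without the second 3D library. JUP, which encodes plakoglobin, rose in LS513 (525 ± 31.6 and 978 ± 72.4 CPM), HCT116 (238 ± 24.1 and 486 ± 64.4 CPM) and LS174T (202 ± 6.51 and 281 ± 19.02 CPM). The desmosomal cadherin DSG3 rose from 0.116 ± 0.0973 to 2.49 ± 0.219 CPM in LS513. In HCT116 DSG4 rose from 0.504 ± 0.0199 to 1.14 ± 0.490 CPM, and PKP1 was at 0.0203 ± 0.0176 and 0.176 ± 0.0483 CPM.

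Among 13 tested genes of other intermediate filaments, 3 were higher and 4 lower in 3D in HT29 (21.1% and 19.6% of all tested genes). In LS513 4 were higher and 2 lower (13.7% and 9.9%), and in HCT116 5 higher and 2 lower (16.8% and 12.3%). LS174T had 0 higher and 2 lower (13.1% and 9.15%). LMNB1, which encodes lamin B1 of the nuclear lamina, fell in HT29 (277 ± 8.87 and 161 ± 7.34 CPM), LS513 (208 ± 3.77 and 148 ± 14.001 CPM) and HCT116 (229 ± 13.9 and 147 ± 18.04 CPM). It was also called lower in LS174T (219 ± 4.80 and 177 ± 9.50 CPM). LMNB2 fell in HT29 (386 ± 8.68 and 276 ± 21.3 CPM), LS513 (382 ± 11.1 and 285 ± 6.79 CPM) and HCT116 (595 ± 34.4 and 426 ± 37.6 CPM). In LS174T it fell from 365 ± 19.6 to 296 ± 24.8 CPM, but did not pass without the second 3D library (adjusted p = 0.0809, edgeR). No gene of the list, LMNB1 included, was called in LS174T without that library. VIM, which encodes the mesenchymal filament protein vimentin, was at most 2.66 CPM in any library and rose from 0.855 ± 0.107 to 2.53 ± 0.192 CPM in HCT116. DES, of muscle filaments, rose from 0.916 ± 0.235 to 2.55 ± 0.227 CPM and SYNC from 1.10 ± 0.0966 to 2.85 ± 0.373 CPM in the same line. DES in HT29 was at 0.107 ± 0.0983 and 0.385 ± 0.210 CPM, SYNC in LS513 at 0.179 ± 0.147 and 0.654 ± 0.214 CPM, and PRPH in LS513 at 0.0101 ± 0.0174 and 0.341 ± 0.204 CPM.

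Mesenchymal markers other than VIM moved in few cases. FN1, which encodes fibronectin, fell from 1.20 ± 0.616 to 0.163 ± 0.117 CPM in HT29 and rose from 5.22 ± 3.63 to 15.5 ± 3.81 CPM in LS513. S100A4 rose from 12.1 ± 2.26 to 57.1 ± 15.5 CPM in HCT116. Of the 7 tested mesenchymal markers, 1 was lower in HT29 (19.6% of all tested genes). In LS513 2 were higher (13.7%), in HCT116 2 (16.8%) and in LS174T 1 (13.1%). The gene in LS174T, SNAI2, had no count in 2D and 0.0652 ± 0.0315 CPM in 3D. It did not pass without the second 3D library (adjusted p = 0.104, edgeR).

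Over the 24 libraries, the gene most like each keratin was sought among 16617 other genes by Pearson's r of log2(CPM + 1). The values are descriptions, since all genes share the same libraries, lines and depth. KRT20 was most like TSPAN1, which encodes a tetraspanin (r = 0.983), KRT15 most like SYNPO (0.978) and KRT18 most like ARFRP1 (0.977). KRT8 was most like KRT8P3 (0.985), one of its own pseudogenes, whose sequence it shares in part. KRT23 was most like TTC39A (0.974), KRT80 most like TNKS1BP1 (0.966), KRT19 most like BCKDK (0.954) and KRT17 most like SND1 (0.937). The lowest values belonged to the sparse genes KRT7 (MIR614, 0.911) and KRT81 (LINC00460, 0.867).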

How the data were processed

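RNA sequencing counts were used for 24 libraries of the 4 CRC cell lines. The authors selected poly(A) RNA, prepared strand-specific libraries and sequenced single reads of 75 bases. They trimmed the reads with Trim Galore 0.4.1, aligned them with STAR, removed reads that aligned more than once and counted reads per gene with HTSeq 0.5.3. The deposited values are raw counts without normalization. The processing notes name bcl2fastq 2.18.0.12 and the build hg19, whereas the methods name the annotation of Ensembl 91. Of the 58243 identifiers, 57980 are in GENCODE 29, which gave symbols, positions on GRCh38 and lengths.

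The 8 technical replicates of each library were summed (7 for 1 library of HT29 grown in 3D, whose other one was not analysed here). Replicates of a group were compared over genes by chi-square, which was at least 3.60 per degree of freedom in all 24 pairs, so none was a repeat of another. Counts were filtered with filterByExpr, scaled with TMM and fitted with edgeR 4.0.16 in R 4.3.3 (robust quasi-likelihood, 8 group means, 24 libraries). P-values are two-sided and adjusted over the 19387 tested genes. The steps were tested on simulated data. Figures were drawn with matplotlib 3.10.9.

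Every keratin of the list is named. Of the further lists, the gene with the smallest p in each line and the called genes over 1 on the log2 scale that reached 1 CPM in a group are named. The 10 keratins and all lists were chosen with earlier results of these data known. Replicate numbers showed no clear pairing of the libraries: of 11 same-numbered pairs, 2 had a correlation of deviations over 0.1 (between -0.21 and 0.22). With deviations from means of 3 libraries, this check cannot exclude pairing. Alternatives were the size factors of DESeq2, totals without the keratins, all genes with at least 1 count, DESeq2 1.42.0, a replicate block, only the libraries compared, technical replicate d left out, pseudogene counts added, other cutoffs, other gene lengths, and each library left out in turn. The length of the shortest principal transcript was chosen after seeing the data.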

Additional observations from a re-analysis of the deposited data

Results flagged for a closer look

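For 6 keratins the difference between 3D and 2D growth was not the same in the 4 lines, by edgeR's interaction test with Benjamini-Hochberg adjustment over all tested genes. The adjusted p was 1.69e-07 for KRT20, whose increase was largest in LS174T, and 1.38e-06 for KRT23, which was not called in LS513. It was 3.29e-05 for KRT7, 7.09e-05 for KRT15 and 0.000339 for KRT80, which rose in HCT116 and fell in HT29. For KRT81 it was 0.0216, and this value did not pass without replicate 2 of HT29 grown in 2D (0.115), without replicate 4 of HT29 grown in 3D (0.0556) or without replicate 2 of HCT116 grown in 2D (0.0510). Groups of 3 libraries are too small for a test of single outlying libraries.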

How the results depend on the processing

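Of the 38 fold changes, 287 of 304 values under other settings kept their direction and their side of the threshold, 14 passed newly, 3 no longer passed and 0 changed sign. With all genes with at least 1 count, 7 keratins were called in LS513 in place of 4 and 5 in LS174T in place of 3, and with only the libraries compared 7 were called in LS513. With the study's fold cutoffs of -0.5 and 1.5, 3 keratins were called in HT29 and 1 in LS513, and with an absolute log2 fold change over 1, 2 were called in HT29; these settings call fewer by construction. The replicate block called 4 keratins in HT29 in place of 6, without KRT18 (log2 fold change -0.32 in place of -0.41, adjusted p = 0.252, edgeR) and KRT81 (-0.62 in place of -2.64, 0.543). In the interaction it called 5 in place of 6, without KRT81 (0.220). HT29 2D replicate 2, which held 77 KRT81 counts, and HT29 3D replicate 4 had no library of the same number. With the block, the HT29 growth effect took nothing from these libraries, so blocking and their loss cannot be told apart. Whether the numbers pair the libraries could not be decided. The block also called 5 in LS513, with KRT17 (0.0116), and 7 in HCT116, with KRT81 (0.0174). With each library left out in turn, between 4 and 6 keratins were called in HT29, 4 in LS513, 6 or 7 in HCT116, 3 or 4 in LS174T and between 5 and 7 in the interaction. Log2 fold changes that changed sign were those of KRT8 in HT29 (from -0.0048 to 0.14) and LS174T (from -0.33 to 0.26), KRT17 in HT29 (from -1.31 to 0.37) and LS174T (from -0.10 to 0.52) and KRT18 in HCT116 (from -0.037 to 0.13), none of them called with all libraries, and the cause was not tested. Calls were gained without 1 library by KRT17 in HT29 (3D replicate 3, adjusted p = 0.00962, and 0.00374 in the interaction), KRT81 in HCT116 (2D replicate 3, 0.0270), and in LS174T by KRT18 (2D replicate 2, 0.0245), KRT80 (2D replicate 1, 0.0454) and KRT15 (3D replicate 3, 0.0359). The interaction of KRT19 passed without HCT116 2D replicate 3 (0.0196), LS174T 2D replicate 1 (0.0326) or LS174T 3D replicate 3 (0.0267), in a range from 0.0196 to 0.194. KRT81 in HT29 also did not pass when only its own 6 libraries were fitted (0.0758). The counts of keratins that differed between 2 lines stayed between 6 and 10 under the settings run for them, which did not include the replicate block or the study's fold cutoffs. Counts near the floor limit KRT81, KRT17 in HCT116 and KRT23 in LS174T.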
